A study of Mus musculus with 8 samples.

Results

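The liver both makes and clears steroid hormones through a set of enzymes, and 10 genes for such enzymes were described here among the 14317 mouse genes measured. They were chosen by symbol, with earlier results of these data known. The genes are Hsd3b2, Hsd3b3, Hsd3b5, Srd5a1, Cyp17a1, Akr1c6, Akr1c14, Hsd11b1, Hsd17b2 and Hsd17b6. All 10 were above the filter on low values, a mean of at least 10 over the 8 libraries. Hsd3b5, with a Con-Veh mean of 6.27 normalised reads, passed it only through the Con-DHT livers (mean 499.5).

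The samples were livers of female mice fed a Western diet (WD) for 8.5 weeks. The 4 Con-Veh mice carried an empty pellet. The 4 Con-DHT mice carried a 10 mm pellet of dihydrotestosterone (DHT), the androgen that 5-alpha-reductase makes from testosterone and that aromatase cannot turn into estrogen. The labels give the genotype of both groups as WT, and by the study's methods the mice were of a floxed line, received the pellet at 7 weeks of age and were fasted overnight before collection. Each library came from the liver of a single mouse.

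Steroid-metabolizing enzymes work largely in pairs of opposite direction. Dehydrogenases such as Hsd17b2 inactivate a hormone by oxidizing it, reductases such as Hsd11b1 regenerate an active one, and 5-alpha- and 5-beta-reductases reduce the same double bond of a steroid to give different isomers. Several of these genes are known in rodent liver to differ between the sexes.

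Of the 10 genes, 2 rose with DHT and 1 fell. Hsd3b5, whose product is a liver enzyme that reduces 3-keto steroids, went from 6.27 ± 3.18 (SD, n = 4) to 499.5 ± 479 normalised reads (SD, n = 4). Srd5a1, the 5-alpha-reductase, rose 3.21-fold in its mean, and Hsd17b6, which oxidizes 3-alpha-androstanediol back to DHT, fell to 2822 ± 682 from 6070.0 ± 1716 (SD, n = 4 each). The other 7 genes did not pass the test.

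Beside these 3 of 10, limma called 7.21% of all 14312 genes tested at an adjusted p of at most 0.05 (1032 genes, Benjamini-Hochberg). The calls were 658 higher (4.6%) and 374 lower (2.61%), a split that went to 1082 and 208 at equal totals without the Mup genes and to 561 and 75 with spike-in scaling, where the median log2 fold change of all genes was 0.19. On 7 libraries edgeR and DESeq2 called the same 3 enzymes, with 5.71% and 9.44% of all genes. Values of the groups did not overlap for the same 3 of the 10 genes, against 15.1% of all genes tested. The median log2 fold change over the 10 was 0.13 and the median size 0.70, beside -0.01 and 0.17 over all genes. The 10 were chosen with earlier results of these data known, so their values beside those of all genes are only a description. A normalised read count is the number of reads on a gene divided by 1 size factor per library, and fold changes are Con-DHT minus Con-Veh on the log2(value + 1) scale.

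**Figure D1:**
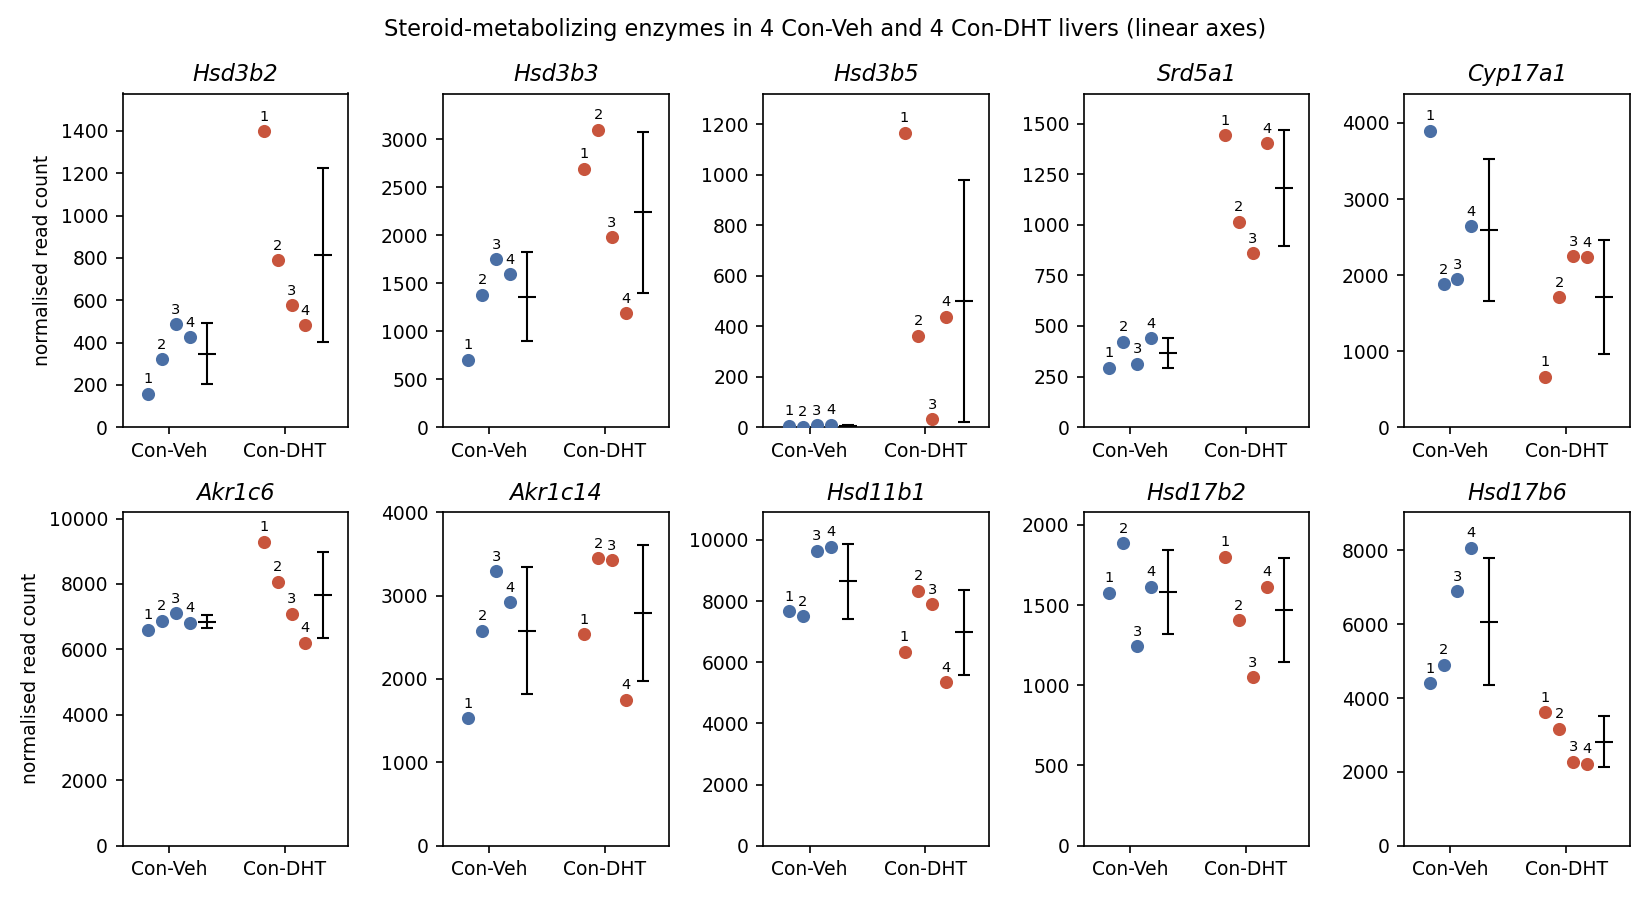
Normalised read counts (linear vertical axes starting at 0) of the 10 enzymes in each liver, with the replicate number above each point. Black marks are group means with SD bars (n = 4). Hsd3b5, Srd5a1 and Hsd17b6 are the genes whose groups do not overlap.

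Hsd3b2, Hsd3b3 and Hsd3b5 belong to the 3-beta-hydroxysteroid dehydrogenase family. Hsd3b2 and Hsd3b3 encode dehydrogenase/isomerases, which make delta-4 3-keto steroids such as progesterone and androstenedione, whereas Hsd3b5 works as a reductase. In GENCODE M21 the 3 genes lie side by side on chromosome 3, on the minus strand, in the order Hsd3b5, Hsd3b2, Hsd3b3. Their coding sequences are each 1122 bases long. Hsd3b2 and Hsd3b3 are 95.1% identical, and Hsd3b5 is 80.3% identical to Hsd3b2 and 79.6% to Hsd3b3. Coding bases 541 to 660 are shown because, among stretches of 120 bases, Hsd3b5 differs there from both others at the most positions. They therefore overstate the difference over the whole coding sequence. Hsd3b4, which is 95.2% identical to Hsd3b5, is not shown. Capitals in Hsd3b5 mark the 45 positions that differ from both of the others, and capitals in the others mark bases that differ from Hsd3b5.
Hsd3b5: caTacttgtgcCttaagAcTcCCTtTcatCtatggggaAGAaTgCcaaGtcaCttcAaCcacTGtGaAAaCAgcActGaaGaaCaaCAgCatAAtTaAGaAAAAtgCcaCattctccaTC
Hsd3b2: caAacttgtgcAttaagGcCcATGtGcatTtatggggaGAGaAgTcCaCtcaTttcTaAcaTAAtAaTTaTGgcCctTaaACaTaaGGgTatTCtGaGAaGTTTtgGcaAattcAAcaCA
Hsd3b3: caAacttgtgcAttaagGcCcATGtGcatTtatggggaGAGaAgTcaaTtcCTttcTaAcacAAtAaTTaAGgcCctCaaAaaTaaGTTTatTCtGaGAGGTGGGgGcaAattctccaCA

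Uniquely mapped reads alone were counted. Of the 100-base windows of the longest Hsd3b5 transcript, 7.79% occur letter for letter in Hsd3b4, Gm10681 or Gm4450, and the coding sequences of Hsd3b4 and Hsd3b5 are 95.2% identical, so a part of the Hsd3b5 value is uncertain. For Hsd3b2 the share of such windows was 7.09%, and for Hsd3b3 it was 0.

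Hsd3b5 had normalised read counts of 6.60, 1.93, 6.99 and 9.57 in Con-Veh replicates 1 to 4. In Con-DHT replicates 1 to 4 it had 1167, 363, 30.6 and 438. Every treated liver lay above every control liver, and the treated livers were themselves far apart. The log2 fold change was 5.40 (SE 0.91, 95% confidence interval 3.36 to 7.43, limma adjusted p = 0.0068), which is position 7 among all increases by fold change. It was 6.44 without Con-DHT replicate 3 and 4.70 without Con-DHT replicate 1, and the call remained in each of the 8 fits that left out 1 library. The Con-Veh values stand on few reads, with 2 in the lowest library.

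Hsd3b2 moved in the same direction as Hsd3b5, with a smaller difference that missed the threshold. The Con-Veh livers had 157, 321, 487 and 424 normalised reads and the Con-DHT livers 1398, 789, 578 and 483. Of the treated livers 3 were above the highest control, and the fourth was just under it. Its log2 fold change was 1.22 (SE 0.38, limma adjusted p = 0.088).

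Hsd3b3 was the most abundant of the 3 per kilobase of exon in every control liver. It had 701, 1380, 1751 and 1594 normalised reads in Con-Veh and 2690, 3098, 1978 and 1187 in Con-DHT. Here too 3 treated livers were above the highest control, while Con-DHT replicate 4 lay below 3 of the controls. On the log2 scale the difference was 0.71 (SE 0.33, 95% confidence interval -0.03 to 1.45, limma adjusted p = 0.23). With libraries scaled by the spike-ins, Hsd3b2 and Hsd3b3 passed, with limma adjusted p-values of 0.00012 and 0.047. That fit gave every gene the variance of the trend alone, its prior degrees of freedom being infinite.

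The shares of Hsd3b2, Hsd3b3 and Hsd3b5 in their sum changed with DHT. Hsd3b7 was measured but not counted in this sum, and Hsd3b1, Hsd3b4 and Hsd3b6 were not measured. Hsd3b5 made up 2.72, 0.41, 1.10 and 1.67% of the summed level per kilobase of exon of the 3 genes in Con-Veh replicates 1 to 4, and 48.5, 25.1, 4.07 and 47.2% in Con-DHT. Con-DHT replicate 3 was nearest to the controls, and in the other treated livers Hsd3b5 was more abundant per length than Hsd3b2. Without scaling by length, Hsd3b5 made up 0.11 to 0.76% of the summed normalised reads in Con-Veh and 22.2, 8.54, 1.18 and 20.8% in Con-DHT replicates 1 to 4, fewer reads than Hsd3b2 in each treated liver. The log2 ratio of Hsd3b5 to Hsd3b2 went from -5.61 ± 1.01 to -1.43 ± 1.89 (SD, n = 4 each), a difference of 4.18 (exact two-sided permutation test, p = 0.029, adjusted over 3 pairs p = 0.043). The ratio of Hsd3b5 to Hsd3b3 rose by 4.68 with the same exact permutation p and adjusted p. The log2 ratio of Hsd3b2 to Hsd3b3 lay between -2.15 and -1.84 in Con-Veh and between -1.97 and -0.94 in Con-DHT, a difference of means of 0.50 that did not pass (exact permutation p = 0.086, adjusted p = 0.086). The smallest p that 4 against 4 allows is 0.029, and a pseudocount of 5 took both calls away (adjusted exact permutation p = 0.086, differences 3.52 and 4.01). The differences were 5.10 and 5.70 without Con-DHT replicate 3, with an adjusted exact permutation p of 0.086.

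**Figure D2:**
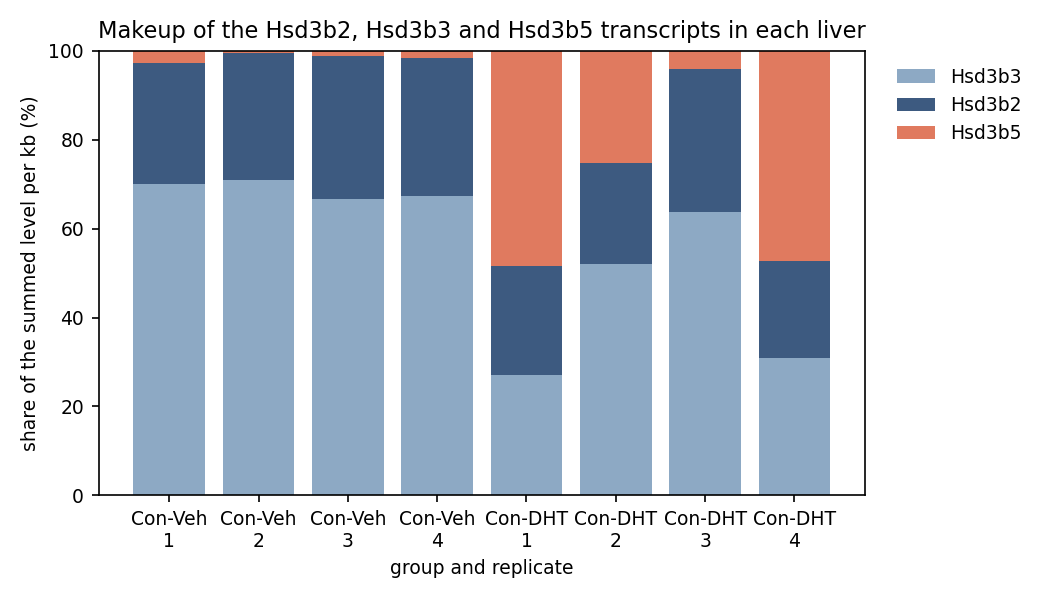
Share (%) of the summed level per kilobase of exon taken by Hsd3b3, Hsd3b2 and Hsd3b5 in each of the 8 livers. Hsd3b5 takes at most 2.72% in Con-Veh and 4.07 to 48.5% in Con-DHT, or 1.18 to 22.2% in Con-DHT without scaling by length.

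The stretches before the RefSeq start sites of the family are shown because its members moved unequally. Each is 250 bases long, on GRCm38.p6, minus strand: chr3:98645535-98645784 for Hsd3b5, chr3:98763129-98763378 for Hsd3b3 and chr3:98724544-98724793 for Hsd3b2. Capitals in Hsd3b5 and Hsd3b3 mark the 151 bases that are identical when the pair is aligned, and capitals in Hsd3b2 mark a match to TGTTCT on the opposite strand.
Hsd3b5: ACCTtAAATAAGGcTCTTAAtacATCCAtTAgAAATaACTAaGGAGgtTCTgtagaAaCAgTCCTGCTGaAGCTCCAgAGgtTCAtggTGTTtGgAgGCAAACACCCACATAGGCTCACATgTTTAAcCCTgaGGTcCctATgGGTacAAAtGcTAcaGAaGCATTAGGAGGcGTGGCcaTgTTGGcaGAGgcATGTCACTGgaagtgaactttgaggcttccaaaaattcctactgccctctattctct
Hsd3b3: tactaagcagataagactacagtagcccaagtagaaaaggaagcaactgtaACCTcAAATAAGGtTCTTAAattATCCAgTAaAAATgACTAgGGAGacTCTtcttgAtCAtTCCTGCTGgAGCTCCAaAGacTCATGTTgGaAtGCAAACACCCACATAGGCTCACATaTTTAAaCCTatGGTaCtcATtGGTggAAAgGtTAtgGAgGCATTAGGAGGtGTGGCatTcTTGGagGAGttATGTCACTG
Hsd3b2: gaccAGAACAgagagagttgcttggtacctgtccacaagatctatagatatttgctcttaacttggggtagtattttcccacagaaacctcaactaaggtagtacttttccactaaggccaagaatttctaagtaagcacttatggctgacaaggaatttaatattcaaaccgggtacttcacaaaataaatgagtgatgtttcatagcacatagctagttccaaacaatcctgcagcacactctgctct

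Over the 199 positions where Hsd3b5 and Hsd3b3 could be set against each other, 75.9% of bases were identical. The same figure was 52.7% over 239 positions for Hsd3b5 and Hsd3b2. The windows were searched on both strands for TTCNNNGAA, the consensus bound by STAT5, for the letters TGTTCT, and for a steroid hormone response element, which is TGTTCT with its reverse complement set 3 bases before it. RefSeq gave 10 windows of 300 bases (from 250 before to 50 after the start) for 8 of the 10 enzymes. None held TTCNNNGAA, which 8.30% of all 32851 windows hold, and none held the full response element, which 3 of all windows hold. With only 10 windows, finding none of either cannot set the enzymes apart from all windows. TGTTCT was found in 1, that of Hsd3b2, from position -246 relative to the start, and is present in 19.0% of all windows.

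Hao2, a peroxisomal hydroxyacid oxidase that is not a steroid enzyme, is the next measured gene on the far side of the cluster and was named after its values were seen. It had 91.8 ± 7.03 normalised reads in Con-Veh and 5.65 ± 4.97 in Con-DHT (SD, n = 4 each), a log2 fold change of -4.17 (SE 0.51, limma adjusted p = 0.0013). Within this stretch of the chromosome Hsd3b5 rose and Hao2 fell.

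Srd5a1 encodes the form of 5-alpha-reductase that predominates in liver, where it turns testosterone into DHT and begins the clearance of glucocorticoids and progesterone. Its start site is printed because it stands apart in base composition from that of Hsd17b6. The stretches are chr13:69611464-69611713 for Srd5a1 and chr10:128007612-128007861 for Hsd17b6, both 250 bases on the minus strand of GRCm38.p6, with each CG in capitals.
Srd5a1: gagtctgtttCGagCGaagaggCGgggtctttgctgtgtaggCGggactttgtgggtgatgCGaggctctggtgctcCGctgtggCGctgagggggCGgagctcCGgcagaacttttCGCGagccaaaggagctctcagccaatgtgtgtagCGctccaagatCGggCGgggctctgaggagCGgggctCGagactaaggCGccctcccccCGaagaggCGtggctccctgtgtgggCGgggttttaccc
Hsd17b6: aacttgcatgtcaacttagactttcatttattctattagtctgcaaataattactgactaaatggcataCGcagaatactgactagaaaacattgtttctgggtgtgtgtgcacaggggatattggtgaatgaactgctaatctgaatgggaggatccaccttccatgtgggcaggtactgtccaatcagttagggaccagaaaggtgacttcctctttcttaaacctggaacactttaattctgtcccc

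The Srd5a1 stretch holds 20 CG pairs and is 64.8% G or C, and the Hsd17b6 stretch holds 1 CG pair and is 41.2% G or C. Among all RefSeq start sites, 82.1% had fewer CG pairs than Srd5a1 and 7.87% had fewer than Hsd17b6. The stretch of Hsd3b5, which rose like Srd5a1, also holds 1 CG pair and is 45.2% G or C.

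The normalised read counts of Srd5a1 were 295, 422, 314 and 439 in the Con-Veh livers and 1443, 1015, 860.4 and 1402 in the Con-DHT livers. The lowest treated liver was above the highest control, and the coefficient of variation among treated livers was 24.4%, beside 95.8% for Hsd3b5. The means were 367 ± 73.3 and 1180.2 ± 288 (SD, n = 4 each), and the log2 fold change was 1.67 (SE 0.19, 95% confidence interval 1.25 to 2.09, limma adjusted p = 0.00090). Srd5a1 shares 476 exon bases with Gm17108 on the same strand, whose value was 5.22 to 19.6. Its fold change lay between 1.56 and 1.81 when each library was left out in turn.

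Cyp17a1 encodes the cytochrome P450 with 17-alpha-hydroxylase and 17,20-lyase activity, the step toward androgens in gonads and, in rodents, also found in liver. It had 3900, 1878, 1944 and 2643 normalised reads in Con-Veh and 661, 1707, 2251 and 2234 in Con-DHT. The highest control and the lowest treated liver were the respective replicates 1, and the other 6 livers overlapped. The log2 fold change of -0.68 (SE 0.38, 95% confidence interval -1.52 to 0.15, limma adjusted p = 0.31) went to -0.27 without Con-DHT replicate 1.

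Akr1c6 and Akr1c14 are aldo-keto reductases that reduce keto groups of androgens, Akr1c6 mainly at position 17 and Akr1c14, a 3-alpha-hydroxysteroid dehydrogenase, at position 3, where it inactivates DHT. Akr1c6 was steady among controls, at 6606, 6881, 7098 and 6814 normalised reads, and was more variable with DHT, at 9291, 8065, 7093 and 6209. The coefficient of variation was 2.96% in Con-Veh and 17.3% in Con-DHT. Con-DHT replicates 1 and 2 were above all controls and replicate 4 was below them. The groups differed by 0.15 on the log2 scale (SE 0.12, 95% confidence interval -0.11 to 0.40, limma adjusted p = 0.50).

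Akr1c14 overlapped between the groups. It had 1527, 2577, 3288 and 2922 normalised reads in Con-Veh and 2539, 3448, 3421 and 1749 in Con-DHT. Con-DHT replicates 2 and 3 were just above the highest control, and Con-Veh replicate 1 and Con-DHT replicate 4 were the low libraries. DHT and vehicle differed by 0.12 on the log2 scale (SE 0.26, 95% confidence interval -0.47 to 0.70, limma adjusted p = 0.84).

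Hsd11b1, which regenerates corticosterone from its inactive 11-keto form, followed Hsd17b6 and Akr1c6 in mean level per kilobase of merged exons in both groups. That order depends on the length used, and in Con-DHT the ranges of Hsd17b6 and Hsd11b1 overlapped. Hsd11b1 had 7659, 7511, 9641 and 9778 normalised reads in Con-Veh and 6341, 8335, 7893 and 5338 in Con-DHT. The groups overlapped, with Con-DHT replicates 1 and 4 below all controls. On the log2 scale the difference was -0.32 (SE 0.15, 95% confidence interval -0.66 to 0.02, limma adjusted p = 0.24).

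Hsd17b2 oxidizes testosterone and estradiol to their weaker 17-keto forms. It had 1579, 1885, 1243 and 1615 normalised reads in Con-Veh and 1803, 1407, 1050.2 and 1615 in Con-DHT. The groups lay on top of each other, and the log2 fold change was -0.12 (SE 0.17, 95% confidence interval -0.50 to 0.26, limma adjusted p = 0.73).

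Hsd17b6, the oxidative enzyme that can return 3-alpha-androstanediol to DHT, fell. The Con-Veh livers had 4409, 4899.9, 6894 and 8077 normalised reads and the Con-DHT livers 3610.4, 3173, 2281 and 2224. All 4 treated livers were below the lowest control. The log2 fold change was -1.09 (SE 0.21, 95% confidence interval -1.57 to -0.62, limma adjusted p = 0.014). With spike-in scaling the fold change was -0.89 and the limma adjusted p 0.061. Of the 100-base windows of its longest transcript, 10.5% occur in retinol dehydrogenase genes (Rdh1, Rdh16 and others). Reads from such windows may not map uniquely, so a part of its value is uncertain, by an amount that was not measured.

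**Figure D3:**
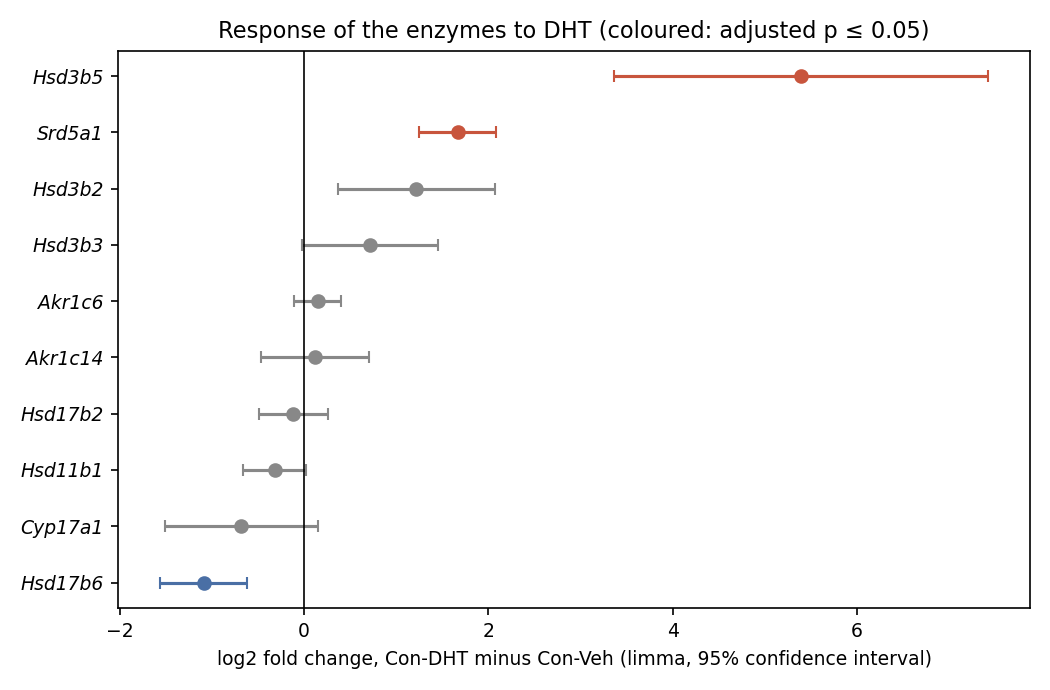
Log2 fold changes (Con-DHT minus Con-Veh, limma) of the 10 enzymes with 95% confidence intervals (n = 4 livers per group). The intervals of Hsd3b5, Srd5a1 and Hsd17b6, drawn in colour, belong to the genes with an adjusted p of at most 0.05. The intervals themselves are not adjusted.

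Per kilobase of exon, the order of levels in Con-Veh was Hsd17b6 (3854), Akr1c6 (3369), Hsd11b1 (2034), Cyp17a1 (936), Hsd17b2 (821), Akr1c14 (796), Hsd3b3 (212), Srd5a1 (126), Hsd3b2 (94.0) and Hsd3b5 (4.05), each the mean of 4 livers. The length of a gene is that of all its annotated exons merged, and other lengths can give another order. For Hsd11b1 it is 4251 bases, beside 1978 for its longest transcript. On the merged lengths, ranges of neighbours were separate between Akr1c6 and Hsd11b1, Hsd11b1 and Cyp17a1, Akr1c14 and Hsd3b3, and Hsd3b2 and Hsd3b5. In Con-DHT, Akr1c6 stood first at 3770.1 and Hsd17b6 second at 1792. Hsd3b5 was ninth at 322, above Hsd3b2 at 220 with overlapping ranges (SD 309 and 111). Ranges of neighbours from Akr1c14 down to Hsd3b2 all overlapped in that group.

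Livers within a group did not vary alike across the enzymes. Con-DHT replicate 1 had the highest value of the 8 libraries for 4 enzymes (Hsd3b2, Hsd3b5, Srd5a1 and Akr1c6) and the lowest for Cyp17a1. Con-DHT replicate 4 had the lowest of the Con-DHT values for 6 enzymes (Hsd3b2, Hsd3b3, Hsd11b1, Hsd17b6, Akr1c6 and Akr1c14) but the second highest for Hsd3b5 and Srd5a1. Con-DHT replicate 3 was lowest in its group for Hsd3b5, Srd5a1 and Hsd17b2. Con-Veh replicate 1 was lowest of its group for 6 enzymes, and its share of spike-in reads was the highest of the 8 libraries, at 3.61%.

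The genes whose log2 values were most like those of the 3 called enzymes over the 8 libraries were also listed, by Pearson's r among 14302 genes, as a description of points that share their groups and libraries. For Hsd3b5 they were Fabp1, the liver fatty acid binding protein (r = 0.986), Cnih1 (r = 0.983) and Fam78b (r = 0.981). For Srd5a1 they were Mup16, a major urinary protein gene (r = 0.993), Scp2, a sterol carrier protein (r = 0.992), and Susd4 (r = 0.990). For Hsd17b6 they were Cyp3a11, a steroid-hydroxylating P450 (r = 0.986), Soat2, which esterifies cholesterol (r = 0.983), and Afm (r = 0.977). With the group means taken out, the correlations were between 0.902 for Susd4 and 0.969 for Fabp1. The genes were picked for a high r over these same libraries, so high values here follow in part from the choice. Fabp1, Cnih1 and Fam78b did not pass the test themselves (limma adjusted p 0.060, 0.16 and 0.075). Fabp1 followed Hsd3b5 in its spread among treated livers, with 31248, 28852, 21337 and 27408 normalised reads in Con-DHT replicates 1 to 4, replicate 3 again being the lowest.

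Of 62 other genes listed for steroid metabolism, 39 were tested and 5 passed, 3 higher and 2 lower, which is 12.8% beside the 7.21% of all genes tested. This list too was chosen with earlier results of these data known. The values did not overlap for 6 of the 39, against 15.1% of all genes tested. The median log2 fold change over the 39 was 0.01. The limma count was 0 without Con-Veh replicate 2 or Con-DHT replicate 1 (9 at an unadjusted p under 0.05 in each), 1 without Con-Veh replicate 4, 2 without Con-Veh replicate 1 or Con-DHT replicate 4, and 3 without Con-Veh replicate 3 or Con-DHT replicate 2.

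The gene of this list with the largest rise was Cyp7b1, the oxysterol and steroid 7-alpha-hydroxylase, which also acts on dehydroepiandrosterone. It had 280.3, 255, 303 and 329 normalised reads in Con-Veh and 2125, 924, 497 and 4544 in Con-DHT. All treated livers were above all controls, with replicate 3 again nearest to them. The log2 fold change was 2.32 (SE 0.54, limma adjusted p = 0.030), and it was 1.77 without Con-DHT replicate 4 and 2.83 without Con-DHT replicate 3. The call was lost without any 1 of the Con-Veh libraries, without Con-DHT replicate 1 (limma adjusted p 0.060 to 0.080 over these fits) and without the trend (0.067).

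Stard4, a cytosolic sterol carrier, rose from 370.4 ± 139 to 674 ± 107 normalised reads (SD, n = 4 each; log2 fold change 0.91, SE 0.21, limma adjusted p = 0.028), with Con-Veh replicate 3 above the lowest treated liver. Hsd17b12, which also elongates fatty acids, rose from 1147 ± 77.3 to 1655 ± 256 (SD, n = 4 each; 0.52, SE 0.11, limma adjusted p = 0.024). Akr1c20 fell from 1115 ± 161 to 696 ± 143 (SD, n = 4 each). Its log2 fold change was -0.69 (SE 0.16, limma adjusted p = 0.028). Hsd3b7, a bile acid synthesis enzyme of the 3-beta family, fell from 532 ± 57.9 to 397 ± 32.1 (SD, n = 4 each). Here the log2 fold change was -0.42 (SE 0.10, limma adjusted p = 0.030). Of 8 fits without 1 library, the call remained in 2 for Stard4, 3 for Hsd17b12, 4 for Akr1c20 and 2 for Hsd3b7. None of these calls remained without the trend or with the replicate block. With spike-in scaling that of Stard4 remained and those of Hsd17b12, Akr1c20 and Hsd3b7 were lost (limma adjusted p 0.22, 0.66 and 0.93).

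Akr1d1, the 5-beta-reductase and thus the counterpart of Srd5a1, had means of 2318 and 1432 normalised reads, a log2 fold change of -0.73 and a limma adjusted p of 0.0501, just above the threshold. It passed by DESeq2 on 7 libraries (adjusted p = 0.031), with a pseudocount of 5, at equal upper quartiles, and in limma without Con-Veh replicate 1 (adjusted p = 0.044) or Con-DHT replicate 2 (adjusted p = 0.019). It did not pass by edgeR on 7 libraries (adjusted p = 0.11 with either scaling). In limma it failed with spike-in scaling (adjusted p = 0.58), without the trend (0.10) and in 6 of 8 fits without 1 library (up to 0.13). Its groups overlapped. The other isoforms of 5-alpha-reductase did not pass, with log2 fold changes of -0.50 for Srd5a2 and -0.19 for Srd5a3. H6pd, which supplies NADPH to Hsd11b1, was at 0.03 and Por, the electron donor of microsomal P450s, at 0.01. Papss2, which makes the sulfate donor, was at -0.31 and Serpina6, the corticosteroid-binding globulin, at -0.29.

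**Figure D4:**
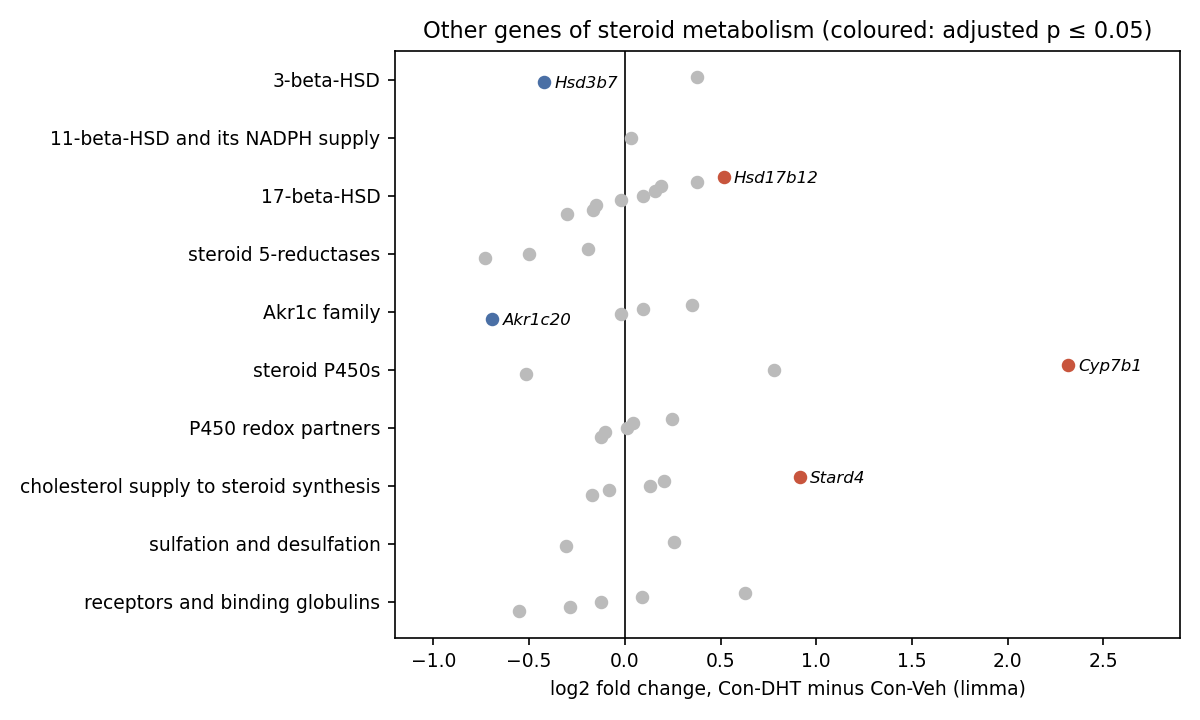
Log2 fold changes (Con-DHT minus Con-Veh, limma) of the 39 other tested genes of steroid metabolism by class. Coloured points are the 5 genes with an adjusted p of at most 0.05, with Cyp7b1 the farthest from 0 at 2.32.

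In bulk tissue, fewer cells of a type and less RNA per cell cannot be told apart. Reads on mouse genes were between 13123962 and 17815944 per library. None of the 6 hepatocyte markers passed the test. Of the Kupffer cell markers 3 of 5 were lower (summed normalised reads 5179 to 6541 in Con-Veh and 3477 to 4795 in Con-DHT), as were 2 of 5 endothelial markers (3021 to 3359 and 2220.2 to 2541). None of those 10 was at 0. None of the 5 adipocyte markers passed, but their sum was 543 to 813 in Con-Veh and 629 to 2622 in Con-DHT, with Cfd at 1713 and 2033 in Con-DHT replicates 3 and 4 and at 307 to 502 in the other livers. The part of these markers in the results was not tested. Of 6 markers of steroid-making glands 1 was measured, Star, with 24.1 to 73.5 normalised reads. Hsd3b2 and Hsd3b3 share 99 and 281 exon bases with Zfp697 on the opposite strand, whose reads cannot be told apart from theirs without strand, and whose value was 30.8 to 54.2.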

How the data were processed

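RNA from 4 Con-Veh and 4 Con-DHT livers was sequenced, 1 library per mouse, with groups taken from the labels. Per the study's methods and the submitters' processing notes, the authors trimmed reads with Trimmomatic, aligned them with STAR (GRCm39), counted uniquely mapped exonic reads with featureCounts (Subread) and normalised with DESeq2. The deposited signal is the read count of a gene divided by 1 size factor per library. Genes with fewer than 81 reads in all are not analysed here.

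Values were taken as log2(value + 1), and the 14312 mouse genes averaging 10 or more were compared with limma 3.58.1 in R 4.3.3, fitting an intensity trend. P-values were adjusted over all of them by Benjamini-Hochberg, with a threshold of 0.05. Ratios were tested by exact permutation over 70 arrangements. SDs are over mice.

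Whole reads were recovered for 7 libraries (100% of values whole within 0.001 reads). An automatic check did not accept the eighth, Con-Veh replicate 3, because its step per read lies too near 1, and it was left out of the count tests. On 3 Con-Veh and 4 Con-DHT libraries edgeR 4.0.16 called 817 genes and DESeq2 1.42.0 called 1351. The 8-library count tests planned at first were not run. Depths count its values, which were also whole, as reads. Libraries of a group differed beyond sampling noise (chi-square per degree of freedom at least 19.2).

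The 10 enzymes, the list of other genes and the markers were chosen with earlier results of these data known. Named were all 10 enzymes, listed genes that passed, the most abundant gene of each class without one, and the 3 genes most correlated with each called enzyme. Genes were placed with GENCODE M21 (GRCm38), and start sites came from RefSeq GRCm38.p6. Scripts were tested on simulated data. Alternatives were other pseudocounts (0.1 and 5), filters, scalings, the trend left out, a replicate block, the count tests and leaving out each library. The floxed gene is not reported here.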

Additional observations from a re-analysis of the deposited data

Results flagged for a closer look

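In 3 of 40 groups of 4 livers (20 named genes), 1 library lay far from the other 3 by Dixon's test, where chance gives about 1 in 20. None of the 3 concerned the 10 enzymes. Hsd17b12 was lowest in Con-DHT replicate 3, at 1273 normalised reads, with the others from 1752 to 1820.3. Stard4 was highest in Con-Veh replicate 3, at 578, with the next at 312. Por was lowest in Con-Veh replicate 4, at 14930, with the next at 21273.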

How the results depend on the processing

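Hsd3b5 and Srd5a1 kept their direction and their call in all 12 alternatives and all 8 fits that left out 1 library. Hsd17b6 kept its call except with spike-in scaling and the replicate block (limma adjusted p 0.061 and 0.056). The count of called enzymes was 2 to 4 over the alternatives and 3 whichever library was left out. By edgeR and DESeq2 on 7 libraries the adjusted p was 0.023 and 2.3e-06 for Hsd3b5, 0.0041 and 9.4e-12 for Srd5a1, and 0.038 and 0.00037 for Hsd17b6.

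The count of 5 other listed genes became 2 with spike-in scaling, 0 without the trend, 2 with the replicate block and 0 to 5 when a library was left out. At an unadjusted p under 0.05 limma had 8 of the 39 without the trend, and edgeR and DESeq2 called 4 and 7 of them after adjustment. The count over all genes went from 1032 to 648 with a mean of at least 50, 636 with spike-in scaling, 1351 with DESeq2 and 638 to 897 without 1 library. The sign of Hsd17b2 reversed with spike-in scaling (0.081) and over left-out libraries (-0.23 to 0.034). Other ranges over left-out libraries that crossed 0 were -0.12 to 0.32 for Akr1c14, -0.056 to 0.084 for H6pd, -0.12 to 0.15 for Por and -0.54 to 0.11 for Serpina6, which was 0.077 in edgeR with TMM, 0.078 in edgeR with DESeq2 size factors and 0.078 in DESeq2, all on 7 libraries. The cause was not tested. With a pseudocount of 5 the difference between groups in the log2 ratio of Hsd3b5 to Hsd3b2 was 3.52 and in that to Hsd3b3 4.01. Without 1 library they ranged from 3.75 to 5.10 and from 4.11 to 5.70, and 4 against 3 cannot pass after adjustment.

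Same-numbered libraries of the groups did not deviate together (r between -0.19 and -0.006), so the numbers are not taken to pair mice. With the replicate number as a block 700 genes were called and 2 of the 10 enzymes, and Akr1d1 passed (limma adjusted p = 0.041). Depth limits Hsd3b5 in Con-Veh, where 3 reads correspond to 2.61 to 3.30.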
